A study of Mus musculus with 24 samples.

Results

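Heat-shock chaperones are proteins that help other proteins fold, and the mRNAs of 10 of them are described here: Hspa8, Hsph1, Hspa4, Dnajb1, Dnaja1, Hsp90aa1, Hsp90ab1, Ahsa1, Hspd1 and Hspe1. They were taken by gene symbol from 55414 gene identifiers, and were selected on their CPM levels over time in these same libraries, which earlier results had shown to be highest early under actinomycin D. Their course over time is therefore given as a description with no test, and the tests below concern genotype, by which no gene was chosen. Tests of a change over time compare that same course between genotypes, so their counts are not independent of the choice. All 10 were among the 16167 genes that passed the filter on low counts. The cells were 32D, a mouse bone marrow line grown with interleukin-3 (IL-3), as wild type (WT) and as KO1 and KO2, each 1 clone labelled Nat10+/-. Nat10 is the enzyme that acetylates cytidine in RNA, and the series asked how it affects the lifetime of mRNAs. All groups grew in RPMI1640 medium holding 10% serum and 10 ng/ml of IL-3. Actinomycin D, a DNA-binding inhibitor of transcription to which RNA polymerase I is the most sensitive, was given at 0.05 µg/ml, and cells were collected at 0, 3, 6 and 9 h, with 2 libraries of polyadenylated RNA for each of the 12 groups of genotype and time.

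HSP70 proteins bind unfolded stretches of other proteins and release them in a cycle driven by ATP. J-domain proteins bring clients to HSP70 and start ATP hydrolysis, while HSP110 proteins make HSP70 let go of the spent nucleotide. HSP90 takes over clients that are nearly folded, such as kinases and steroid receptors, and co-chaperones set the pace of its cycle. Many of these genes are switched on by heat shock factor 1, which binds heat shock elements, short inverted repeats of the unit GAA. Of the 10 genes, 8 encode proteins of the cytosol. Hspd1 and Hspe1 encode HSP60 and its lid HSP10, the chaperonin of mitochondria, so the word cytosolic would not cover them.

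The libraries held between 15361601 and 17338939 gene counts. Nat10 itself was at 111 and 113 CPM (counts per 1000000 counts, with libraries scaled by the TMM method) in the WT libraries of 0 h, at 97.6 and 108 in KO1 and at 99.1 and 95.1 in KO2, so that both clones were lower by a small margin (log2 difference -0.12, SE 0.05, adjusted p = 0.0486 for KO1 and -0.21, SE 0.05, adjusted p = 0.000291 for KO2, edgeR). Of 12 lymphoid markers, 3 averaged 5 CPM or more in each genotype and Ms4a1, Cd4 and Cd8a had no counts, although the labels call the cells lymphoblastocytes. The lymphoid markers summed to between 8.02 and 75.1 CPM by library. The 15 myeloid progenitor markers summed to between 614 and 1522 CPM by library, with Kit at 0 in both clones. The 7 macrophage markers summed to between 46.8 and 348 CPM by library. Spike-in RNA, added in equal amounts per the labels, was at 6.92 to 15.9 CPM of gene counts in WT libraries, at 240.2 to 353 in KO1 and at 324 to 844 in KO2. A CPM is a share of a library, and in bulk RNA fewer cells of a type cannot be told apart from less RNA per cell. The labels call the libraries of a group biological replicates without saying that cultures were separate. The p-values below therefore reflect only how far libraries of the same group differed, a spread that may be technical. The fit pools that spread over all 12 groups. Beyond counting noise, edgeR put the common coefficient of variation between libraries of a group at 0.0206.

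RefSeq start-site windows on GRCm38.p6, from 250 bases before to 50 after a start, were at hand for 7 of the 10 genes, and were searched on both strands for heat shock element cores, because such elements are the textbook feature of heat-inducible chaperone genes. The core of 3 alternating units, GAANNTTCNNGAA or its reverse complement TTCNNGAANNTTC, lay in windows of 3 of the 7 genes and of 179 of all 27025 genes with a window (0.662%). Among the other chaperone and heat shock genes listed further below, it lay in windows of 2 of 78 (2.56%). Hspd1 and Hspe1 face away from each other and share 1 stretch of bases that holds 2 overlapping cores, so these 2 genes are not separate observations. It is printed on the Hspe1 strand at chr1:55088053-55088082, and lies 89 to 72 bases before the Hspe1 start and 144 to 127 before a Hspd1 start. Hsph1 holds a 3-unit core 36 to 48 bases after a start (chr5:149636287-149636316, minus strand). It also holds a pair of units, TTCNNGAA, 33 to 26 bases before that start (chr5:149636351-149636380, minus strand). From another Hsph1 start the core lies 15 to 27 bases after and the pair 54 to 47 before. Dnaja1 holds only a pair in the other order, GAANNTTC, 124 to 117 bases before a start (chr4:40722333-40722362, plus strand). Capitals mark the matched bases, all of which lie in annotated exons.
Hspe1 and Hspd1, shared: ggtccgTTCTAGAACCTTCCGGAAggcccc
Hsph1, after the start: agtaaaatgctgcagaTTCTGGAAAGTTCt
Hsph1, before the start: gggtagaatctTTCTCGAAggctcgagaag
Dnaja1: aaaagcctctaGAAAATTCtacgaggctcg

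The pairs are common: TTCNNGAA lay in windows of 9.6% of all genes and of 3 of the 7, and GAANNTTC in 9.04% and in 4 of the 7, and both pairs are contained in the 3-unit core. Among the 78 other chaperone and heat shock genes with a window, the shares were 10.3% and 16.7%. Dnajb1, the gene with the highest 3 h to 0 h ratio in WT, and Hspa4, the one with the lowest, held none of these cores, and neither did Ahsa1. A match is a string of letters and not a measured binding site, and its absence says only that these letters are not in the window. The bases before a Dnajb1 start that lie in no annotated exon are at chr8:83607972-83608174 (plus strand), and those of Hspa4 at chr11:53300480-53300729 (minus strand), shown as the 2 ends of the range of ratios.
Dnajb1: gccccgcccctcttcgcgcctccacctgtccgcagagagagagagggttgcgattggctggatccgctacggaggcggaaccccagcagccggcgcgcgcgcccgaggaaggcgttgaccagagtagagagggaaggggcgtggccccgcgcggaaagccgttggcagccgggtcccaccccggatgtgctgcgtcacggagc
Hspa4: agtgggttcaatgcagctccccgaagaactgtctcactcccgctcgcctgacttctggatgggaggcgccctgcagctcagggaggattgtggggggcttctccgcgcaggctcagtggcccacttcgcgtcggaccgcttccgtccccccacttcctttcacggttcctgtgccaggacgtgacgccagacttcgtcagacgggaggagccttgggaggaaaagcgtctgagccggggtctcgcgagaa

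In all 3 genotypes, each of the 10 mRNAs had a higher mean CPM at 3 h than at 0 h, the course they were chosen for. Of all 16167 genes tested, 8831 in WT, 8723 in KO1 and 8801 in KO2 had a log2 change above 0 over this span. Among the 10, the ratio of 3 h to 0 h ran from 1.11 to 4.10 in WT with a median of 2.31. It ran from 1.15 to 5.25 in KO1 with a median of 2.57, and from 1.15 to 5.06 in KO2 with a median of 2.65. Together the 10 genes took 0.713% of all gene counts in WT at 0 h, 1.654% at 3 h, 1.508% at 6 h and 1.153% at 9 h (mean of 2 libraries). The same shares were 0.646%, 1.743%, 1.705% and 1.244% in KO1 and 0.65%, 1.77%, 1.651% and 1.203% in KO2. The label of an early peak held for 9 genes in WT, 9 in KO1 and 10 in KO2, whose highest mean was at 3 h, with total gene counts as the scale for 6, 7 and 7. Dnajb1 in WT was highest at 9 h, and Hsp90ab1 in KO1 at 6 h. With spike-in totals as the scale, which rests on 120 to 257 spike-in counts in a WT library, the 3 h to 0 h ratios ran from 0.781 to 2.89 in WT, 1.02 to 4.69 in KO1 and 0.716 to 3.16 in KO2. There Hspa4 was the 1 gene lower at 3 h than at 0 h in WT and in KO2.

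**Figure D1:**
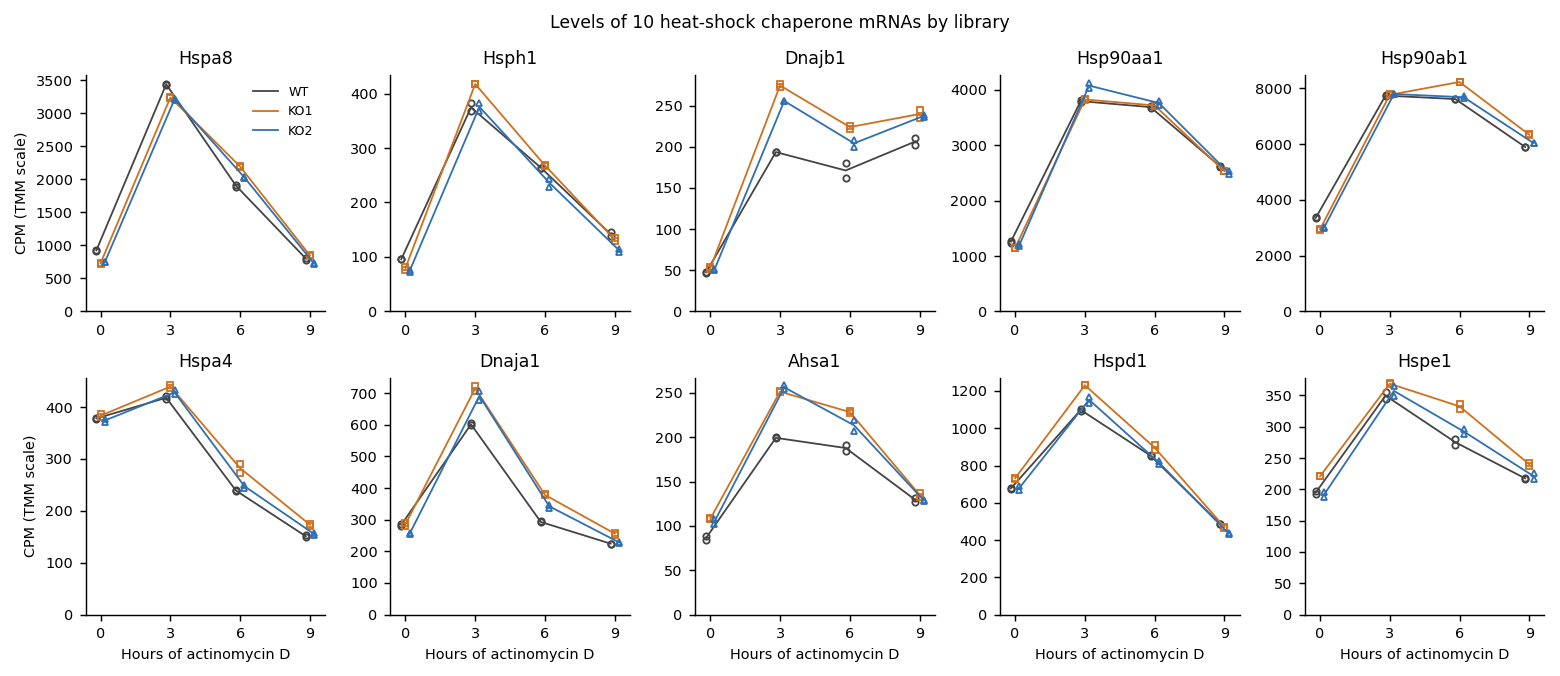
CPM on the TMM scale (y axis, from 0) against hours of actinomycin D for each of the 10 mRNAs, with 1 open symbol per library and lines through the means of 2 libraries (WT circles, KO1 squares, KO2 triangles, shifted sideways for legibility). Replicate libraries lie close together, 9 of 10 panels show the highest WT mean at 3 h, and Dnajb1 stays high to 9 h.

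Hspa8 encodes the constitutive cytosolic HSP70 and was the most abundant HSP70 or HSP110 mRNA of the 10 per kb of exon (GRCm39 chromosome 9, 40712280 to 40721383). In WT the libraries read 927 and 921 CPM at 0 h, 3451 and 3429.7 at 3 h, 1889 and 1918 at 6 h, and 815 and 785 at 9 h, a mean 3.72 times higher at 3 h than at 0 h. KO1 read 735 and 723, then 3234 and 3248, then 2187 and 2198, then 849.7 and 841. KO2 read 745 and 742, then 3224 and 3205, then 2032 and 2028, then 716 and 727. All clone libraries thus lay below WT at 0 h and 3 h and above WT at 6 h, and at 9 h the clones lay on opposite sides of WT. The difference at 0 h was -0.34 on the log2 scale in KO1 (SE 0.02, adjusted p = 7.02e-33) and -0.31 in KO2 (SE 0.02, adjusted p = 9.23e-31). At 3 h it was -0.09 (SE 0.02, adjusted p = 1.17e-06) and -0.10 (SE 0.02, adjusted p = 4.14e-08), the second of which lost its call with total gene counts as the scale (adjusted p = 0.0807).

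Hsph1, an HSP110 protein that acts as nucleotide exchange factor for HSP70 (chromosome 5, 149537752 to 149559841), had a 3 h to 0 h ratio of 3.92 in WT, 5.25 in KO1 and 5.06 in KO2. WT libraries held 95.6 and 95.5 CPM at 0 h, against 76.7 and 82.3 in KO1 and 72.9 and 75.6 in KO2. At 3 h they held 382 and 367, against 417 and 418 in KO1 and 383 and 368 in KO2. Both clones were therefore clear of WT from below at 0 h, whereas at 3 h KO1 was above WT and KO2 overlapped it. The tests gave -0.26 (SE 0.04, adjusted p = 4.72e-07) and -0.36 (SE 0.04, adjusted p = 1.95e-11) at 0 h, and 0.16 (SE 0.03, adjusted p = 2.76e-06) and 0.00 (SE 0.03, adjusted p = 0.943) at 3 h. By 9 h Hsph1 was at 145 and 139 CPM in WT, 128 and 135 in KO1 and 115 and 109.8 in KO2, and the KO2 difference was -0.34 (SE 0.04, adjusted p = 3.80e-13).

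Hspa4, the other HSP110 family member (chromosome 11, 53150641 to 53191284), behaved unlike Hsph1. It read 376 and 379.8 CPM at 0 h in WT, 415 and 421 at 3 h, 237 and 241 at 6 h, and 153 and 149 at 9 h. At 0 h KO1 held 387 and 380.1 and KO2 371 and 377, with no call (adjusted p = 0.632 and 0.729). KO1 was higher later, with 291 and 273 CPM at 6 h (log2 difference 0.24, SE 0.03, adjusted p = 8.10e-12) and 174 and 172 at 9 h (0.20, SE 0.03, adjusted p = 2.20e-07). In KO2, with 251 and 245 CPM at 6 h and 154 and 157 at 9 h, neither difference from WT passed (adjusted p = 0.174 and 0.363).

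Dnajb1, a heat-inducible J-domain protein that activates HSP70 (chromosome 8, 84334822 to 84339282), was the one mRNA of the 10 with its highest WT mean at 9 h, and in the clones it was highest at 3 h and still 4.58 (KO1) and 4.68 (KO2) times its 0 h level at 9 h. That order turned with the scale: with total gene counts the clones too were highest at 9 h, and with spike-in totals WT was highest at 3 h and KO1 at 9 h. WT libraries held 46.3 and 48.3 CPM at 0 h, 194 and 193 at 3 h, 162 and 180.3 at 6 h, and 211 and 202 at 9 h. In KO1 they held 53.4 and 51.5, 276 and 273, 226 and 222, and 235 and 245, and in KO2 51.3 and 50.2, 256 and 256, 199.9 and 209, and 239 and 236. From 3 h on, every clone library was above every WT library of its time. The log2 difference at 3 h was 0.50 in KO1 (SE 0.03, adjusted p = 2.42e-25) and 0.40 in KO2 (SE 0.03, adjusted p = 4.69e-19), and at 9 h 0.22 and 0.20 (both SE 0.03, adjusted p = 3.30e-08 and 1.72e-07). At 0 h it was 0.15 in KO1 (SE 0.06, adjusted p = 0.0349), a call lost with DESeq2 (adjusted p = 0.0723), and 0.10 in KO2 (adjusted p = 0.167).

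Dnaja1, a J-domain protein of type A that works with HSP70 (chromosome 4, 40722150 to 40737149), had a sharper course. Its WT libraries went from 286 and 281 CPM at 0 h to 598 and 605 at 3 h, 294 and 291 at 6 h and 224 and 224 at 9 h. KO1 held 290.1 and 281 at 0 h and 706 and 724 at 3 h, and KO2 258 and 253 and then 705 and 677. KO1 overlapped WT at 0 h, KO2 lay below it, and both lay above WT at 3 h. Only KO2 was called at 0 h (-0.15, SE 0.03, adjusted p = 3.05e-06, against 0.01 and adjusted p = 0.858 for KO1), and at 3 h the differences were 0.25 (SE 0.02, adjusted p = 3.70e-17) and 0.20 (SE 0.02, adjusted p = 1.22e-12). At 6 h, with 377 and 379.8 CPM in KO1 and 338 and 347 in KO2, they were 0.37 and 0.23 (both SE 0.03, adjusted p = 8.33e-24 and 1.79e-12).

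Hsp90ab1, the constitutive HSP90 (chromosome 17, 45878701 to 45884197), was the most abundant of the 10 per length, at 1119 CPM per kb of exon in WT at 0 h, ahead of Hsp90aa1 at 320.4, Hspd1 at 256, Hspa8 at 215 and Hspe1 at 132. The other 5 ran from 68.4 for Hspa4 through 32.9 for Dnaja1, 19.7 for Ahsa1 and 14.8 for Dnajb1 to 13.2 for Hsph1. No neighbours in this order overlapped in their WT libraries of 0 h, and Dnajb1 and Hsph1 were the closest. The length is that of all annotated exons of a gene, 8629 bases for Dnaja1 and 1474 for Hspe1. It may exceed that of a single mRNA, so the order depends on the annotation. Hsp90ab1 read 3377 and 3333 CPM at 0 h in WT, 7753 and 7736 at 3 h, 7632 and 7606 at 6 h, and 5896 and 5902 at 9 h. The clones were below WT at 0 h, with 2945 and 2935 in KO1 and 2995 and 3029.8 in KO2 (log2 difference -0.19 and -0.16, both SE 0.01, adjusted p = 7.49e-25 and 9.06e-20). At 3 h all 6 libraries fell between 7736 and 7813 CPM with no call (adjusted p = 0.809 and 0.554). KO1 then read 8234 and 8230.1 at 6 h and 6312 and 6358 at 9 h, above WT at both times (0.11 and 0.10, both SE 0.01, adjusted p = 2.35e-13 and 1.07e-11).

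Hsp90aa1, the stress-inducible HSP90 (chromosome 12, 110657039 to 110669162), held 1276.5 and 1243 CPM at 0 h in WT, 3811 and 3784 at 3 h, 3702 and 3677 at 6 h, and 2612 and 2621 at 9 h. It too was lower in the clones at 0 h, with 1137 and 1150.5 in KO1 and 1217 and 1172 in KO2 (-0.14 and -0.08, both SE 0.02, adjusted p = 7.41e-12 and 7.17e-05). At 3 h KO2 stood at 4129 and 4027 CPM, above both other genotypes (0.10 against WT, SE 0.01, adjusted p = 4.28e-09). KO1 was at 3824 and 3832 (adjusted p = 0.594). Ahsa1, which stimulates the ATPase of HSP90 (chromosome 12, 87313253 to 87320772), went the other way at 0 h. It read 88.8 and 84.0 CPM in WT, 108 and 107 in KO1 and 102 and 108 in KO2 (0.32 and 0.28, both SE 0.04, adjusted p = 4.36e-10 and 2.53e-08). The clones stayed above WT at 3 h, at 251 and 252 CPM and 254 and 258 against 199 and 199.9 (0.33 and 0.36, both SE 0.03, adjusted p = 1.72e-15 and 2.69e-17). At 9 h the difference did not pass in either clone (adjusted p = 0.199 and 0.934).

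Hspd1 and Hspe1 lie head to head on chromosome 1 (55116994 to 55127402 on the minus strand and 55127291 to 55130466 on the plus strand, GRCm39). Their spans overlap and strand was not used in counting, so reads of the overlap cannot be told apart. Hspd1 held 673 and 681 CPM at 0 h in WT, 1094 and 1102 at 3 h, 857 and 850.0 at 6 h, and 483 and 488 at 9 h. KO1 was above WT at 0 h and 3 h, with 728 and 735 and then 1231 and 1230.5 CPM (0.11 and 0.16, both SE 0.02, adjusted p = 2.98e-06 and 1.07e-12). KO2 overlapped WT at 0 h, at 689 and 669, and was below it at 9 h, at 436 and 434 (-0.16, SE 0.02, adjusted p = 6.47e-10). Hspe1 read 193 and 197, 345 and 355, 271 and 279.7, and 218 and 217 CPM in WT. In KO1 it was higher at 0 h, with 221 and 221 (0.18, SE 0.03, adjusted p = 1.60e-06), and at 6 h, with 336 and 329 (0.27, SE 0.03, adjusted p = 2.12e-14). In KO2 the 0 h libraries, at 187 and 196, overlapped WT (adjusted p = 0.635), and the 6 h libraries, at 289 and 296, did not (0.09, SE 0.03, adjusted p = 0.0106). Of 12 pseudogene entries named after Hspd1, Hspe1 or Dnaja1, 7 had no counts, and the largest, Hspd1-ps3, reached at most 0.711% of Hspd1 in a library.

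Counted over the 10 genes, KO1 differed from WT in 8 at 0 h, 4 higher and 4 lower, where 27.3% of all genes tested were called (15% higher, 12.3% lower). At 3 h 7 were higher and 1 lower (36.8% of all genes, 20.1% higher and 16.7% lower). With DESeq2 5 were higher and 1 lower at 3 h, since Hspa4 and Hspe1 lost their calls. At 6 h 8 were higher and 0 lower, also at an unadjusted p under 0.05 and with DESeq2 (35.7%, 18.4% higher and 17.4% lower). At 9 h 6 were higher and 2 lower (34.4%, 19.3% and 15.1%), with 0 lower in DESeq2. KO2 differed from WT in 6 at 0 h, 1 higher and 5 lower (29.4%, 15.1% higher and 14.3% lower). At 3 h 5 were higher and 1 lower (38.7%, 21.1% and 17.6%). At 6 h 5 were higher and 2 lower (34.3%, 17.5% and 16.8%), and at 9 h 2 higher and 4 lower (35.2%, 18.7% and 16.5%). The 2 lower at 6 h, Hsph1 (-0.16) and Hspd1 (-0.06), lost their calls with total gene counts. On that scale they were at -0.06 (adjusted p = 0.127) and 0.04 (adjusted p = 0.137). Hspa8, Hsph1, Hsp90aa1 and Hsp90ab1 were lower and Ahsa1 higher at 0 h in each clone. The clones share their WT libraries, so they are set side by side here and not counted as separate evidence. The largest size of any called difference was 0.50, for Dnajb1 in KO1 at 3 h, and the median over the 10 genes ran from -0.05 in KO2 at 0 h to 0.22 in KO1 at 6 h, against medians over all genes between -0.02 and 0.02. The abundant genes have the smaller standard errors, and the smallest called difference from WT was 0.03, for Hsp90ab1 in KO2 at 9 h, a call lost when either WT library or replicate 2 of KO2 was left out. The calls for Hsp90aa1 at 9 h in KO1 (-0.05) and in KO2 (-0.06) were lost with DESeq2 (adjusted p = 0.109 and 0.0617), and with total gene counts the KO2 value was 0.01.

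**Figure D2:**
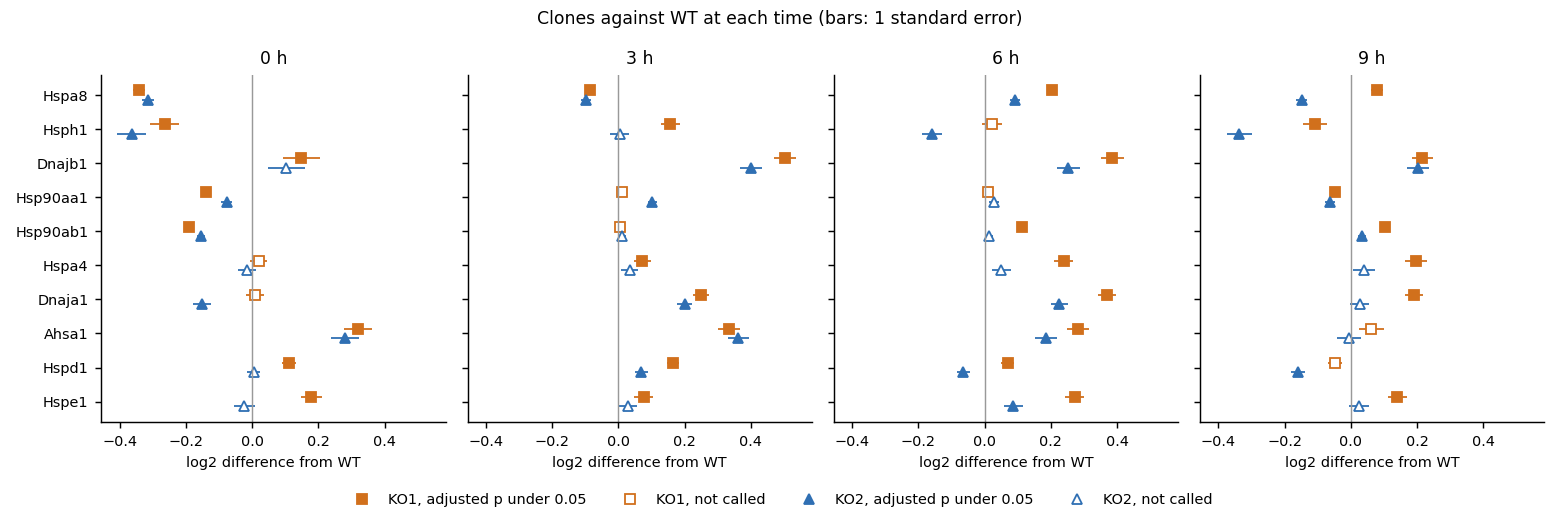
Log2 difference of each clone from WT (x axis, fitted by edgeR on the TMM scale) for the 10 genes at 0, 3, 6 and 9 h, with bars of 1 standard error; squares are KO1, triangles KO2, and filled symbols have an adjusted p under 0.05. At 0 h the leftmost symbols are Hspa8 and Hsph1 and the rightmost Ahsa1, and from 3 h on Dnajb1 lies to the right of 0 in each clone.

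The 2 clones also differed from each other. KO2 against KO1 gave 5 calls at 0 h, 2 higher and 3 lower (16.8% of all genes were called, 7.29% higher and 9.55% lower), and 4 at 3 h, 1 higher and 3 lower (12%, 5.61% and 6.34%). At 6 h all 9 calls were lower in KO2 (13.4%, 5.59% higher and 7.83% lower) and at 9 h all 7 (12.4%, 4.89% and 7.54%). None was higher at those times, at an unadjusted p under 0.05 or with DESeq2. Hsp90aa1 was the gene not called at 6 h (0.02, SE 0.01, adjusted p = 0.543), and it stood higher in KO2 at 0 h and 3 h (0.06 and 0.09, SE 0.02 and 0.01, adjusted p = 0.0026 and 6.57e-07). Its 0 h value was 0.05 without replicate 1 of KO1 and 0.03 without replicate 1 of KO2, and the call was lost in each. The largest gaps at 9 h were those of Hsph1 and Hspa8 (both -0.23, SE 0.04 and 0.02, adjusted p = 1.06e-06 and 5.90e-21). Since each clone is 1 line, an effect of the genotype cannot be told apart from one of the clone. Leaving out replicate 1 of KO1 or replicate 1 of KO2 at 0 h lowered the 5 calls of 0 h to 3. The calls for Dnajb1 at 3 h and Ahsa1 at 6 h were lost with DESeq2 (adjusted p = 0.109 and 0.0555). With total gene counts in edgeR they were lost too (adjusted p = 0.064 and 0.23). That of Dnajb1 was also lost when any 1 library of the clones at 3 h was left out.

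The change from 0 h to 3 h was larger in the clones than in WT for 6 of the 10 genes in KO1 and 6 in KO2, by the test of that difference in edgeR (25.8% and 24.7% of all genes called, 13.1% and 13.3% toward larger and 12.7% and 11.4% toward smaller changes). It was smaller for 0 genes in each clone, also with DESeq2, and at an unadjusted p under 0.05 for 1 gene in KO1 and 0 in KO2. The 6 were Hspa8, Hsph1, Dnajb1, Hsp90aa1, Hsp90ab1 and Dnaja1 in each clone. For Hsph1 the log2 change was larger by 0.42 in KO1 (SE 0.05, adjusted p = 8.49e-11) and by 0.37 in KO2 (SE 0.05, adjusted p = 1.38e-08), and for Hsp90ab1 by 0.20 and 0.17 (both SE 0.02, adjusted p = 7.50e-17 and 1.92e-13). These values use the same 0 h and 3 h libraries as the differences at those times. The genes were chosen on this course, in the clones too, so the counts are not independent of the choice. For Hspa8, Hsp90aa1 and Hsp90ab1 the clones were low at 0 h. In KO2 Hsp90aa1 was also high at 3 h (0.10 against WT, after -0.08 at 0 h). Dnajb1 and Dnaja1 were high at 3 h in each clone, and Dnaja1 in KO2 was also low at 0 h (-0.15). Hsph1 was low at 0 h in each clone, and in KO1 also high at 3 h (0.16). Hspa4, Ahsa1, Hspd1 and Hspe1 did not pass in either clone (adjusted p between 0.0568 and 0.904). With total gene counts as the scale all 10 genes were called in KO2 and 8 in KO1, where Hspa4 and Hspd1 were added. The 95% interval for Ahsa1 was -0.10 to 0.13 in KO1 and -0.03 to 0.20 in KO2.

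From 3 h to 9 h, 3 genes changed more toward higher levels in KO1 than in WT (Hspa8, Hsp90ab1 and Hspa4) and 5 more toward lower levels (Hsph1, Dnajb1, Hsp90aa1, Ahsa1 and Hspd1), where 21.1% of all genes were called (11% and 10.1%). The Hsp90aa1 value (-0.06, adjusted p = 0.0321) lost its call with DESeq2 (-0.03, adjusted p = 0.289), with RLE size factors, without the filter, and when any 1 of the 8 libraries of 3 h and 9 h in WT and KO1 was left out (adjusted p from 0.0526 to 0.129). The Hspa4 value (0.12) lost its call when replicate 1 of KO1 or replicate 2 of WT was left out at 3 h or at 9 h. In KO2 6 were on the lower side: Hsph1, Dnajb1, Hsp90aa1, Dnaja1, Ahsa1 and Hspd1 (20.8%, 9.99% higher and 10.8% lower). On the higher side there were 0 in KO2, 0 at an unadjusted p under 0.05 and 1 with DESeq2. Ahsa1 had the largest such value in KO2 (-0.37, SE 0.05, adjusted p = 2.95e-09) and Dnajb1 in KO1 (-0.29, SE 0.05, adjusted p = 6.46e-07). In KO1 these directions depend on the scale. Spike-in totals were a scale added for this test once the data were known. With them the change from 3 h to 9 h in KO1 was on the higher side of WT for all 10. Hsph1 (0.30) and Dnajb1 (0.28) were included, and 6 of them passed. In KO2 0 of the 10 were called over either span on that scale. The 6 genes named for KO2 stayed on the lower side from 3 h to 9 h, but with larger standard errors. Hsph1 was at -0.47 (SE 0.17, adjusted p = 0.112) and Ahsa1 at -0.50 (SE 0.17, adjusted p = 0.0862). The change from 0 h to 3 h in KO1 stayed on the higher side on that scale for the 6 genes called, at 0.77 for Hsph1 and 0.60 for Hspa8.

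**Figure D3:**
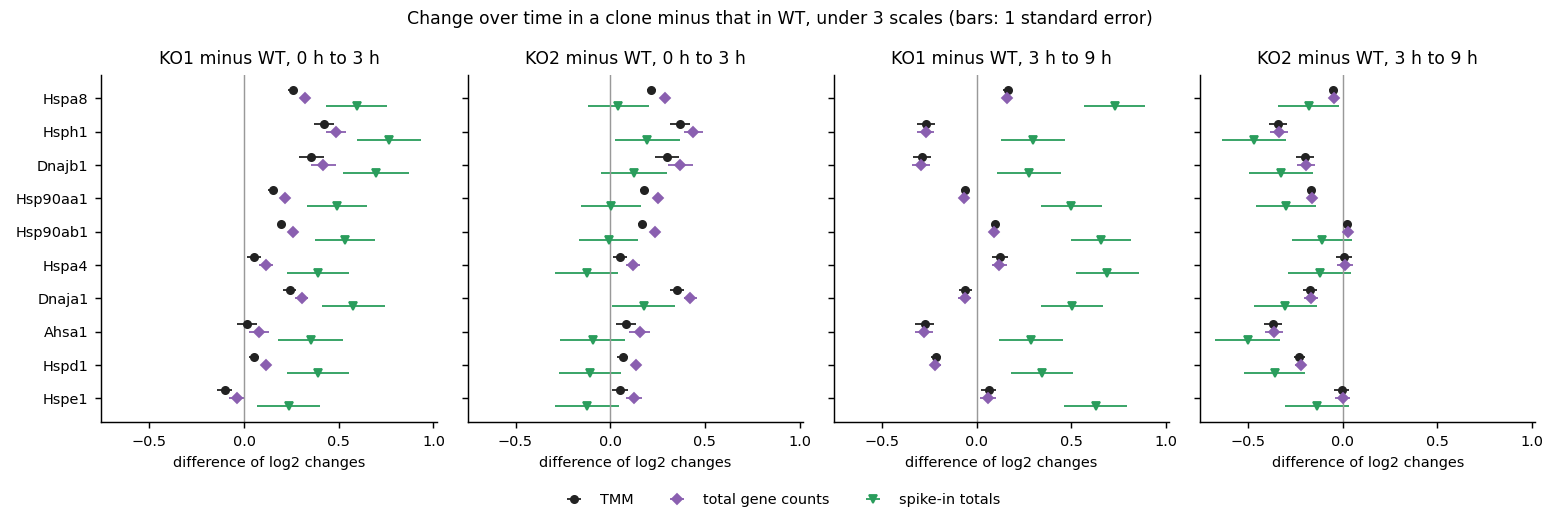
Log2 change over time in a clone minus that in WT (x axis) for the 10 genes, from 0 h to 3 h in the 2 left panels and from 3 h to 9 h in the 2 right panels, with TMM (circles), total gene counts (diamonds) or spike-in totals (triangles) as the scale and bars of 1 standard error. TMM and total counts lie close together, and spike-in totals move all 10 genes of a panel by the same amount, to the right in KO1 and to the left in KO2.

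Ratios of 2 genes within a library cannot move with its scale, and partners of a complex or family were compared in this way. Hsph1 over Hspa4 in counts was 0.254 and 0.252 in the WT libraries of 0 h, 0.92 and 0.872 at 3 h, 1.11 and 1.09 at 6 h, and 0.945 and 0.934 at 9 h. In the clones it was 0.198 and 0.216 (KO1) and 0.197 and 0.2 (KO2) at 0 h, and 0.736 and 0.785 and 0.748 and 0.7 at 9 h, so that all clone libraries were below WT at both ends of the course. Hsp90aa1 over Hsp90ab1 had a WT mean of 0.375 at 0 h, 0.49 at 3 h and 0.444 at 9 h, against 0.4 in KO1 and 0.415 in KO2 at 9 h. Dnajb1 over Dnaja1 went up at each time in all genotypes, from 0.167 through 0.322 and 0.585 to 0.922 in WT and from 0.199 to 1.04 in KO2. Hspd1 over Hspe1, 2 proteins of 1 machine, did not hold steady and went from 3.47 at 0 h to 2.23 at 9 h in WT, from 3.32 to 1.957 in KO1 and from 3.55 to 1.97 in KO2. These ratios follow from the course over time and are descriptions.

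**Figure D4:**
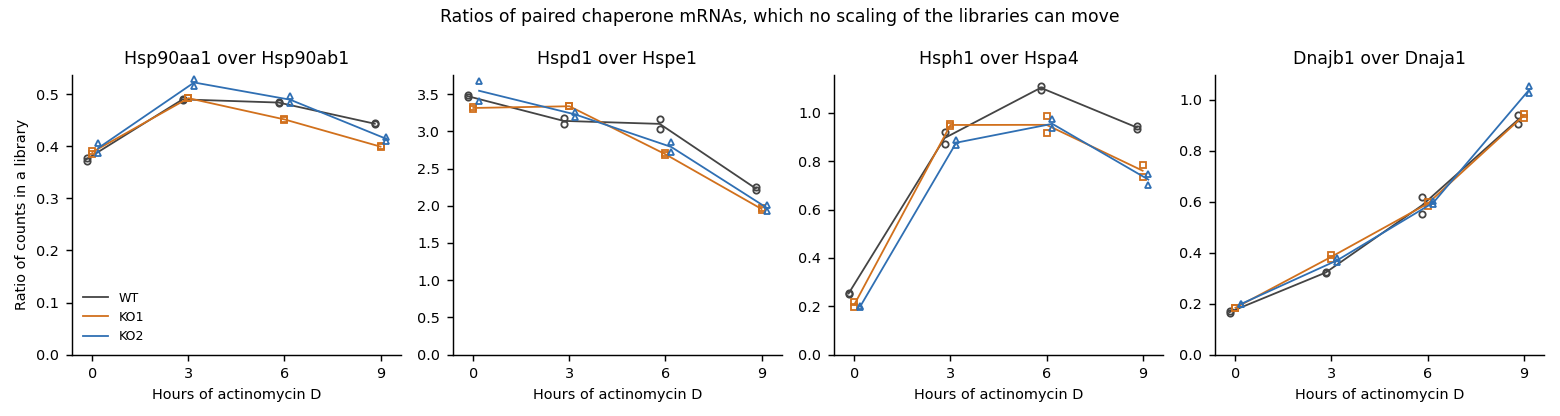
Ratio of the counts of 2 genes in the same library (y axis, from 0, no unit) against hours of actinomycin D, for 4 pairs of related chaperones, with 1 open symbol per library and lines through the means of 2 libraries (WT circles, KO1 squares, KO2 triangles). Dnajb1 over Dnaja1 climbs at every time, and Hsph1 over Hspa4 ends lower in the clones than in WT.

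Beyond the 10 genes, 94 other chaperone and heat shock genes were listed and 85 passed the filter. Of the 94, 18 form a group of other stress-inducible genes, Gadd45b and Hmox1 among them, not all of which are chaperones. From 0 h to 3 h, 42 of the 85 rose and 28 fell in WT, 44 and 25 in KO1 and 48 and 21 in KO2 (edgeR), with a median log2 change of 0.13, 0.14 and 0.27. Of all genes, 72.2% were called in WT (38.6% higher, 33.5% lower), 71.3% in KO1 and 70.9% in KO2, with medians of 0.13, 0.10 and 0.11. By direction, 37.9% were higher and 33.4% lower in KO1, and 37.6% and 33.3% in KO2. The list's median was close to that of all genes in WT and KO1 and above it in KO2. By group, 8 of 9 HSP70 co-chaperones rose in WT and 0 fell, among them Bag1 (1.27), St13 (0.48) and Stub1 (0.78), while 7 rose and 1 fell in KO1 and 8 rose and 1 fell in KO2. In WT 13 of 22 HSP90 co-chaperones rose while 7 fell. J-domain proteins were split, with 5 of 19 higher and 8 lower. From 3 h to 9 h, 27 of the 85 rose and 47 fell in WT (65.9% of all genes were called, 34.2% higher and 31.6% lower), 27 and 47 in KO1 (65.2%, 32.1% and 33%) and 27 and 48 in KO2 (66.2%, 32.5% and 33.7%). The list's median log2 change over this span was -0.38, -0.34 and -0.34, against 0.07, 0.02 and 0.01 over all genes. HSP90 co-chaperones made up 16 of the WT falls, Stip1 (-1.12), Cdc37 (-0.83) and Fkbp4 (-1.55) among them. These 6 co-chaperones were named after their values had been seen. With spike-in totals as the scale, 14 rose and 45 fell from 0 h to 3 h in WT, and 13 rose and 47 fell in KO2.

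**Figure D5:**
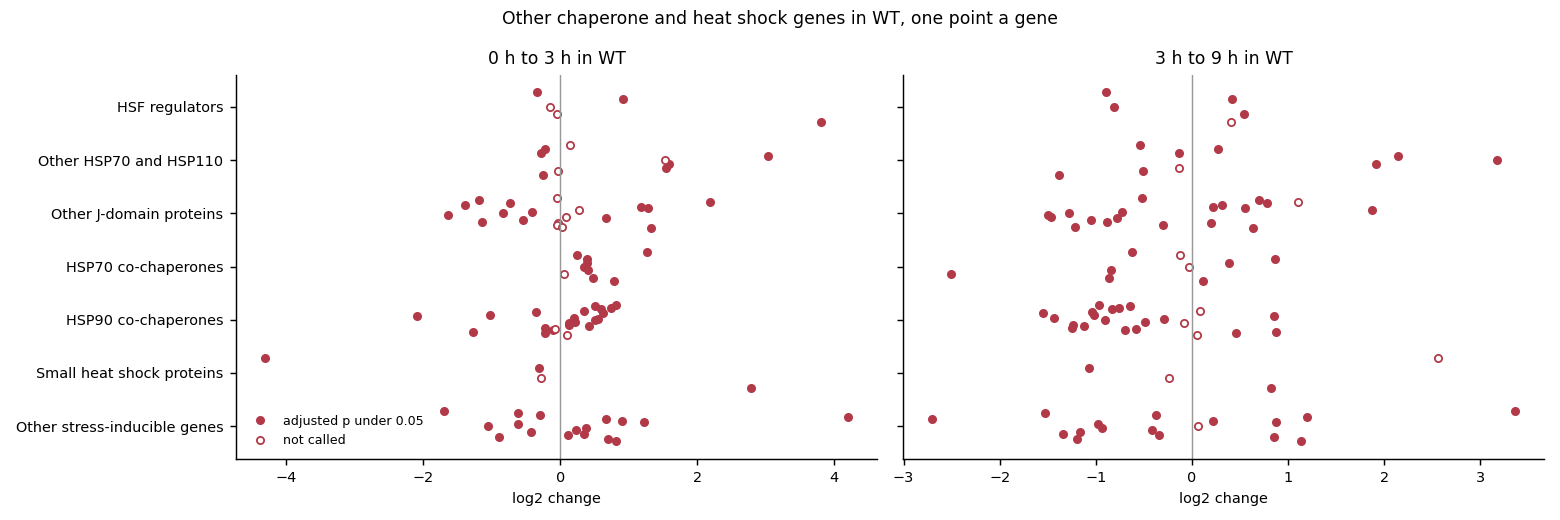
Log2 change (x axis, edgeR on the TMM scale) in WT from 0 h to 3 h on the left and from 3 h to 9 h on the right for the 85 tested genes of the wider list, 1 point per gene in rows by group; filled points have an adjusted p under 0.05. On the left the HSP70 co-chaperones all lie to the right of 0, and on the right most HSP90 co-chaperones lie to the left.

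The 3 largest called rises and falls of the list at 3 h were named in each genotype, among genes averaging 5 CPM or more. Gadd45b, a stress-response gene induced by DNA damage, had the largest such rise in all 3 (18.4-fold in WT, 19.7-fold in KO1, 15.3-fold in KO2), from 3.85 and 3.43 CPM at 0 h in WT to 70.9 and 63.6 at 3 h and 156 and 152 at 9 h. Hspa1l, an HSP70 best known from testis, went from 1.77 and 1.89 to 5.95 and 5.13 CPM in WT (1.59, SE 0.22, adjusted p = 4.62e-10), and Hspa2, another such HSP70, from 8.34 and 8.68 to 27.1 and 22.7 (1.54, SE 0.12, adjusted p = 9.22e-23). Dnajb4 was among the 3 in KO1 (1.69, SE 0.06). Unlike most of the 10 genes, Hspa1l and Gadd45b were higher at 9 h than at 3 h in WT. The largest such falls were those of Fnip1, a co-chaperone of HSP90 (-2.09 in WT, SE 0.06), Dnajc13 (-1.65, SE 0.05) and Dnajb14 (-1.40, SE 0.08), with Dnajc21 (-1.41, SE 0.07) in KO1. At 0 h Nudcd2 (0.40) and Dnajc21 (0.39) were the highest above WT in KO1, and Dnajc9 (0.43) and Dnajc2 (0.32) in KO2. Hspa2 was low in each (-0.54, adjusted p = 0.00372 and -0.94, adjusted p = 7.62e-07), followed in KO2 by Hmox1 (-0.64).

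The mRNA of heat shock factor 1 itself, Hsf1, was at 41.3 and 46.0 CPM at 0 h in WT and 39.6 and 39.3 at 3 h (-0.15, adjusted p = 0.0645), and reached 20.7 and 24.1 at 9 h. Hsf2 had a mean of 29.1 CPM (range 28.1 to 30.2, n = 2) and then 28.1 (range 27.3 to 28.97, n = 2), a log2 change of -0.05 in edgeR (adjusted p = 0.594). Hspa1a and Hspa1b, the classical heat-induced HSP70 genes, had between 0 and 26 counts in any library, of which the 46 counts of Hspa1a and 33 of Hspa1b over the WT libraries of 9 h were the most in a group. The 2 genes are near-identical, so reads may be split between them or lost, and their values are uncertain.

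Genes whose profile was most like the mean profile of the 10 were sought among 10244 genes averaging 5 CPM or more, by Pearson's r over the 12 group means of log2 CPM. They were Phb (r = 0.987), Pop1 (0.985), Eif3l (0.984), Slc25a5 (0.979) and Hadhb (0.979). Phb went from 69.3 and 68.6 CPM at 0 h in WT to 114 and 115 at 3 h and 77.1 and 76.2 at 9 h, and Pop1 from 12.7 and 11.3 to 43.1 and 42.2 and then to 13.7 and 14.7. The 12 means share their time points, so r describes a common course. Set against the mean profile of the other 9, r was 0.985 for Hspe1, 0.98 for Hsph1 and 0.971 for Hspa8, and 0.614 for Dnajb1 and 0.271 for Hspa4. The last pair therefore followed the shared course least.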

How the data were processed

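Counts of read pairs per gene were used as deposited by the authors. The headers record featureCounts 1.6.3 run by the authors on read pairs with both ends aligned, over exons grouped by gene and without strand, although the kit was directional. The annotation was for GRCm39, per the labels, with 92 ERCC spike-in transcripts added. The submitters' processing notes also name STAR and DESeq2, with versions not given in the sources used here. Symbols were found for 52081 of 55414 gene identifiers in a table of gene names, and start-site windows came from RefSeq (GRCm38.p6).

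Libraries were grouped by their titles. A minimum count of 10 in filterByExpr (edgeR 4.0.16, R 4.3.3) left 16167 genes, with TMM scaling, giving CPM, counts per 1000000. A single quasi-likelihood fit held a coefficient for each of 12 groups over 24 libraries, with 12 residual degrees of freedom. Calls are at a Benjamini-Hochberg adjusted p under 0.05 over all genes, and p-values are from this model unless another tool is named. The fit was tested on simulated data, and 95% intervals use its standard error with 12 degrees of freedom. Alternatives were DESeq2 1.42.0, RLE size factors, total gene counts, spike-in totals, no filter, a replicate block, only the libraries of 1 time, and leaving out each library. Promoter cores were matched as exact letters, and profiles used a pseudocount of 0.5.

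The genes and lists were chosen with earlier results of these data known. Named are the 10 genes, Nat10, Hsf1, Hsf2, Hspa1a, Hspa1b, pseudogenes of the 10, the 3 largest called rises and falls of the wider list from 0 h to 3 h in each genotype, the 2 largest each way at 0 h in each clone (all with a mean of at least 5 CPM) and the 5 most similar profiles. One gene that this rule names at 0 h is not reported here. Counts carry no molecular identifiers. Stromal markers summed to between 0.125 and 8.05 CPM by library.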

Additional observations from a re-analysis of the deposited data

Results flagged for a closer look

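For 26 pairs of a gene and a span of time, the edgeR test of the difference itself found that the log2 change in a clone was not that in WT (adjusted p under 0.05). From 0 h to 3 h the change was larger in KO1 than in WT by 0.26 for Hspa8, 0.42 for Hsph1, 0.36 for Dnajb1, 0.15 for Hsp90aa1, 0.20 for Hsp90ab1 and 0.24 for Dnaja1. In KO2 it was larger by 0.22 for Hspa8, 0.37 for Hsph1, 0.30 for Dnajb1, 0.18 for Hsp90aa1, 0.17 for Hsp90ab1 and 0.35 for Dnaja1. From 3 h to 9 h the KO1 value minus the WT value was 0.17 for Hspa8, 0.10 for Hsp90ab1 and 0.12 for Hspa4, and -0.26 for Hsph1, -0.29 for Dnajb1, -0.0593 for Hsp90aa1, -0.27 for Ahsa1 and -0.21 for Hspd1. In KO2 it was -0.34 for Hsph1, -0.20 for Dnajb1, -0.17 for Hsp90aa1, -0.17 for Dnaja1, -0.37 for Ahsa1 and -0.23 for Hspd1. Spike-in RNA was at 6.92 to 15.9 CPM of gene counts in WT and 240.2 to 844 in the clones. With spike-in totals as the scale, 0 of the 6 KO2 pairs from 0 h to 3 h and 0 of the 6 from 3 h to 9 h kept their call. The 6 KO2 values from 3 h to 9 h stayed negative, with larger standard errors (-0.47, SE 0.17 for Hsph1). The 5 negative KO1 values from 3 h to 9 h turned positive. The KO1 value of Hsp90aa1 also lost its call with DESeq2 (-0.03, adjusted p = 0.289), and that of Hspa4 when some single libraries were left out.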

How the results depend on the processing

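Of 120 genotype differences of the 10 genes, 82 were called, and 62 of those kept direction and call under every alternative run for them, which did not include spike-in totals. With total gene counts as the scale, Hspd1 in KO2 at 6 h moved from -0.0645 to 0.0354. Hsp90aa1 in KO2 at 9 h moved from -0.0636 to 0.00851, and the calls for the change from 0 h to 3 h in KO2 went from 6 to 10. That scale moved the median log2 change of all genes from 3 h to 9 h by 0.221 to 0.231. Spike-in totals moved the medians from 0 h to 3 h by -0.504 in WT, -0.162 in KO1 and -0.675 in KO2, and from 3 h to 9 h by -0.322, 0.24 and -0.453. On that scale the change from 3 h to 9 h in KO1 against WT was 0.30 for Hsph1, 0.28 for Dnajb1, 0.50 for Hsp90aa1, 0.50 for Dnaja1, 0.29 for Ahsa1 and 0.35 for Hspd1, and that from 0 h to 3 h in KO2 was -0.00894 for Hsp90ab1. Calls in KO2 went to 0 for 0 h to 3 h and 0 for 3 h to 9 h, and at an unadjusted p under 0.05 in edgeR there were 0 and 3, where DESeq2 on its own scale called 6 and 7. Of the wider list, 14 genes rose and 45 fell from 0 h to 3 h in WT, 15 rose from 3 h to 9 h in WT, 13 rose and 47 fell from 0 h to 3 h in KO2, and 6 rose from 3 h to 9 h in KO2. The cause of these shifts was not tested. KO2 against KO1 at 0 h gave 3 to 4 calls when 1 library was left out.

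Replicate numbers did not pair the libraries: deviations of same-numbered libraries correlated at -0.0235 to 0.152 over 66 pairs of groups. With a replicate block, calls for KO1 against WT at 0 h were 4467 genes in place of 4416, and those of the 10 genes were 8 in place of 8.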
